A study of Mus musculus with 6 samples.

Results

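The genes described here encode C-type lectins, Fc receptors, Siglecs, TREM receptors and the small adaptors through which many of them signal, chosen by symbol: genes beginning with Clec and a digit, with Fcgr, Fcer, Siglec or Trem, together with Mrc1, Mrc2, Tyrobp and Hcst. The rule found 49 genes of 18193 with a single-symbol probe set on the array, and each was read from its brightest probe set on average. The libraries came from cells sorted by fluorescence from the colonic myenteric plexus, the nerve network of the gut wall, of mice of the strain Mapttm1(EGFP)Klt/J, in which EGFP is expressed from the Mapt (tau) locus. All 6 libraries share that allele, and all mice had received cholera toxin subunit B carrying an Alexa Fluor dye in the celiac ganglion 3 to 4 days before they were killed; the age and the number of copies of the allele are not stated in the labels. The groups are 3 libraries labelled Mapt-EGFP+ colonic neurons and 3 labelled Mapt-EGFP- myenteric cells, called positive-labelled and negative-labelled below. Each pooled the cells of 2, 4 or 6 mice, without a statement of which pool had which number, and the comparison asks which transcripts differ between sorted neurons and the remaining cells of the plexus.

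Many of these receptors sit on macrophages, dendritic cells, monocytes and neutrophils, where they bind antibody-coated particles, microbial sugars or lipids. Many activating members lack a signalling tail of their own and pair with Fcer1g or Tyrobp, adaptors whose tyrosine motifs recruit the kinase Syk, while inhibitory members carry tyrosine motifs that recruit phosphatases such as Ptpn6. In the gut wall, resident macrophages of the muscle layer lie close to enteric neurons. Other members of these families have different roles, among them Clec3b and Clec11a, secreted proteins of connective tissue, Clec14a of endothelium and Fcgrt, the receptor that recycles IgG in many cell types.

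Values are the deposited log2 expression values, always listed from replicate 1 to replicate 3, and each difference is the positive-labelled mean minus the negative-labelled mean on the log2 scale. Mapt itself read 1.43, 1.32 and 5.55 in the positive-labelled libraries and 1.44, 1.64 and 1.38 in the negative-labelled ones. In positive-labelled replicates 1 and 2 it was near the TrpnX probe sets, array controls for a bacterial transcript that read 1.00 to 1.48. These values cannot check the labels, because EGFP is expressed from the Mapt locus and the number of copies of the allele is not stated. How much Mapt transcript the allele leaves was not tested. Every direction here refers to the labels. Marker lists also set libraries apart. The 8 neuron markers averaged 6.31 in positive-labelled replicate 3 and 3.36 to 3.73 in the other 5 libraries, and the 12 macrophage markers averaged 6.29, 3.66 and 2.50 in the positive-labelled libraries against 7.72, 8.17 and 6.33. The 5 measured enteric glia markers averaged 6.54, 5.97 and 8.28 against 4.81, 5.75 and 5.33. Of these 5, Sox10, S100b and Erbb3 read higher in all 3 positive-labelled libraries, where 3.07% of all genes did, and no other marker list had a mean higher in every positive-labelled library. The part of glia in the values below was not tested. Positive-labelled replicate 1 thus nearly met negative-labelled replicate 3 in macrophage markers, and negative-labelled replicate 1 had the lowest number of bright probe sets, 6182 above 6 on the log2 scale against 7135 to 7621 elsewhere. In sorted bulk samples fewer cells of a type and less RNA per cell cannot be told apart.

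**Figure D1:**
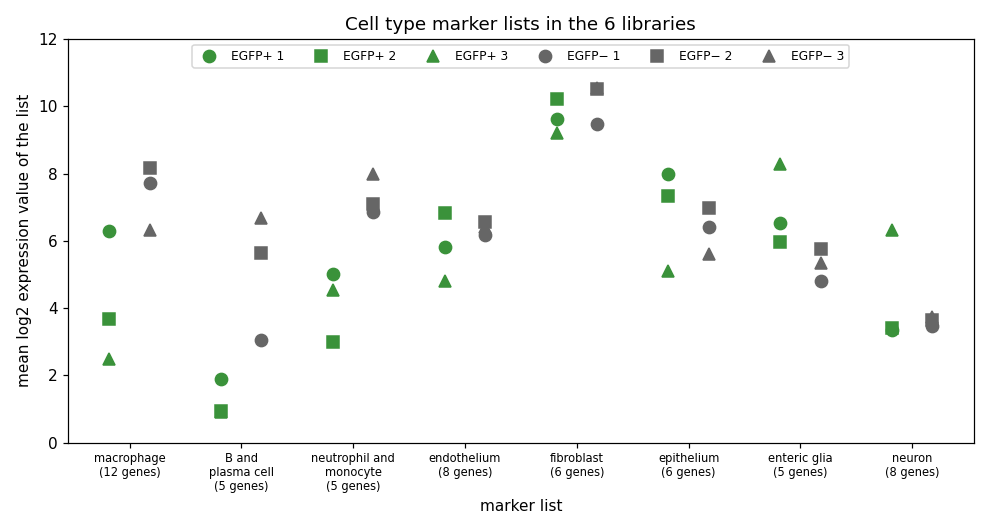
Mean log2 expression value (vertical axis) of 8 lists of cell type markers (horizontal axis) in each library, green for positive-labelled and grey for negative-labelled, with circle, square and triangle for replicates 1, 2 and 3. The enteric glia list lies higher in the positive-labelled libraries, at 5.97 to 8.28 against 4.81 to 5.75, and the macrophage and B and plasma cell lists lie lower, except that positive-labelled replicate 1, at 6.29 for macrophage markers, nearly meets negative-labelled replicate 3, at 6.33, and in the B and plasma cell list the points of positive-labelled replicates 2 and 3 coincide at 0.94 and 0.93.

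Of the 49 genes, 21 read lower in all 3 positive-labelled libraries than in any negative-labelled one, and 0 read higher in all 3. Over all 18193 genes the shares were 6.04% lower and 3.07% higher. The members were chosen with earlier results of these data known, so this contrast is not independent of the values. With a difference of at least 1 on the log2 scale as a further condition, the count was 16 of 49, against 1.5% of all genes. The median difference was -0.40 over the 49 genes and -0.02 over all genes. No gene passed in limma, a linear model fitted over all 18193 genes with Benjamini-Hochberg adjustment (0 genes, 0% of all, at adjusted p 0.05). The lowest adjusted p of a member was 0.951 and the lowest of any gene was 0.34. At an unadjusted limma p under 0.05, 16 of the 49 were lower and 0 higher, where 3.43% and 1.48% of all genes were, and 893 genes (4.91%) in either direction. No member therefore passed the test, which does not show that none changed. The values below describe these 6 libraries, in which Mapt read above background in 1 positive-labelled library.

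Same-numbered libraries deviated from their group means together, so that pairs can also be read. Each SE given here comes from the fit without pairs. With the replicate number in the fit as a block, the SE was smaller for some genes and larger for others. It went from 0.76 to 0.25 for Trem2 and from 1.18 to 1.38 for Ptprc. The positive-labelled library was lower in all 3 pairs for 26 of the 49 genes, against 16.2% of all genes. The median difference over the 49 was -0.26 in pair 1, -0.33 in pair 2 and -0.79 in pair 3, where over all genes it was 0.02, -0.03 and -0.04. At or above a log2 value of 4, the level used here to call a transcript clearly above background, were 14, 9 and 8 members in the positive-labelled libraries and 17, 21 and 19 in the negative-labelled ones. Of all genes, 43%, 45% and 45% were at or above it in the positive-labelled libraries and 40%, 47% and 46% in the negative-labelled ones. Altogether 24 of the 49 reached that level in at least 1 library, as did 52.2% of all genes. The other 25 lay between 0.94 and 3.88 throughout, where differences between dim values carry little weight, and 7 of the 21 genes without overlap are among them.

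**Figure D2:**
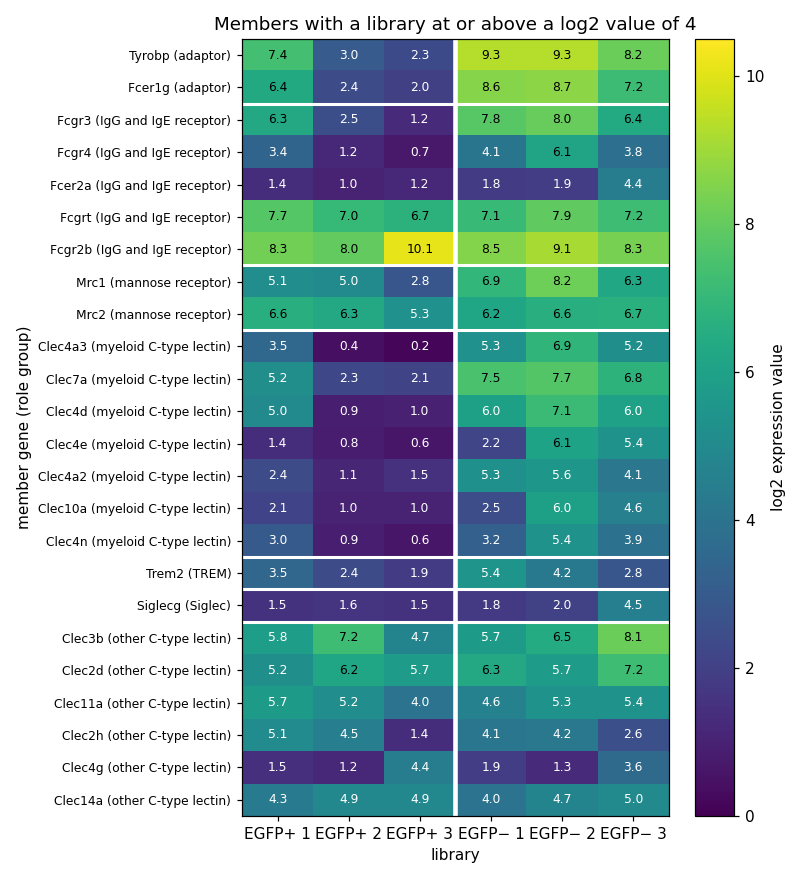
Log2 expression values (colour and printed number) of the 24 member genes that reached 4 in at least 1 library, in rows by role group, with the 3 positive-labelled libraries (EGFP+) left of the white line and the 3 negative-labelled ones (EGFP−) right of it. Myeloid lectins, Tyrobp, Fcer1g, Fcgr3 and Mrc1 are dim in positive-labelled replicates 2 and 3 with the exception of Mrc1 at 4.97 in replicate 2, while Fcgr2b, Fcgrt, Mrc2 and several other lectins are bright in both groups.

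The adaptors read lower in every positive-labelled library than in any negative-labelled one. Tyrobp, also called DAP12, the adaptor of Trem2, Clec5a and further receptors, read 7.35, 3.00 and 2.34 against 9.33, 9.32 and 8.16. The difference was -4.71 (SE 1.37), made up of -1.98, -6.32 and -5.82 in pairs 1, 2 and 3. Fcer1g, the common gamma chain of activating Fc receptors that also serves several C-type lectins, read 6.38, 2.43 and 1.99 against 8.59, 8.67 and 7.18. Its difference was -4.55 (SE 1.25), and again the value of positive-labelled replicate 1 was the nearest to the other group. Hcst, or DAP10, the adaptor of the NK cell receptor NKG2D, read 1.41, 1.32 and 1.00 against 1.44, 2.42 and 2.26, at most 2.42 in any library. Tyrobp and Hcst are neighbours on chromosome 7 with no annotated protein-coding gene of the RefSeq table between them, and of the pair Tyrobp alone reached 4 in any library.

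**Figure D3:**
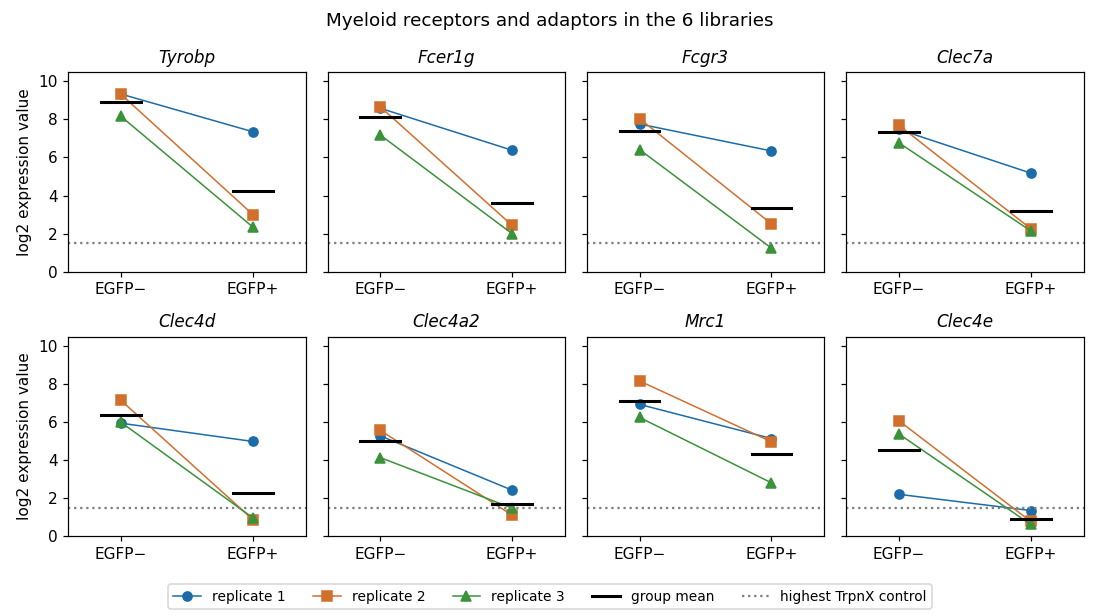
Log2 expression values (vertical axis) of 8 myeloid genes in the negative-labelled (EGFP−) and positive-labelled (EGFP+) libraries, with lines joining same-numbered replicates, black bars at the group means and a dotted line at the highest TrpnX control value of 1.48. The 8 genes were taken from members whose groups did not overlap, so that downward lines follow from the choice. Other myeloid members, among them Trem2, Clec5a and Clec12b, had overlapping groups. All lines slope down, with positive-labelled replicate 1 (blue circles) highest of its group for each of the 8 genes, at 7.35 for Tyrobp.

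Among the IgG receptors, Fcgr3, Fcgr4 and Fcgr1 read lower in the positive-labelled libraries without overlap, and the inhibitory receptor Fcgr2b did not. Fcgr3, a low-affinity activating receptor that needs Fcer1g, read 6.34, 2.51 and 1.23 in the positive-labelled libraries and 7.76, 8.04 and 6.41 in the negative-labelled ones. The difference was -4.04 (SE 1.37), although positive-labelled replicate 1 lay only 0.07 below the lowest negative-labelled library. Fcgr4, a further activating receptor of mouse myeloid cells, read 3.38, 1.22 and 0.73 against 4.06, 6.12 and 3.82, and the groups did not overlap. Fcgr1, the high-affinity receptor, read 2.78, 0.98 and 1.05 against 3.88, 3.76 and 3.34, below 4 in every library. A second, dim probe set of Fcgr1 read 1.75, 1.46 and 1.35 against 2.1, 2.61 and 1.73. Its groups overlapped, with a difference of -0.63.

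Fcgr2b, the inhibitory IgG receptor of B cells, myeloid cells and the sinusoidal endothelium of the liver, was bright in all 6 libraries and overlapped between the groups. It read 8.26, 7.98 and 10.09 in the positive-labelled libraries and 8.53, 9.12 and 8.34 in the negative-labelled ones, so that its highest value lay in positive-labelled replicate 3, the library in which Fcgr3 read 1.23 and Fcgr4 0.73. The difference was 0.11 (SE 0.60), and without that library it was -0.55. The other 3 probe sets of Fcgr2b with a mean above 4 had the same library highest, at 8.24, 8.34 and 8.69, and their differences were 0.23, 0.06 and -0.10. The fifth probe set stayed between 0.77 and 1.02. In positive-labelled replicate 3 the macrophage, endothelium, added lymphatic endothelium and B and plasma cell lists had their lowest means (2.50, 4.80, 4.92 and 0.93), whereas the neuron and enteric glia lists had their highest (6.31 and 8.28). The part of any of these cell types in the Fcgr2b values was not tested. The probe set with the highest mean carries the suffix _s_at, which marks probes that match more than 1 transcript, so related sequences may add to it.

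**Figure D4:**
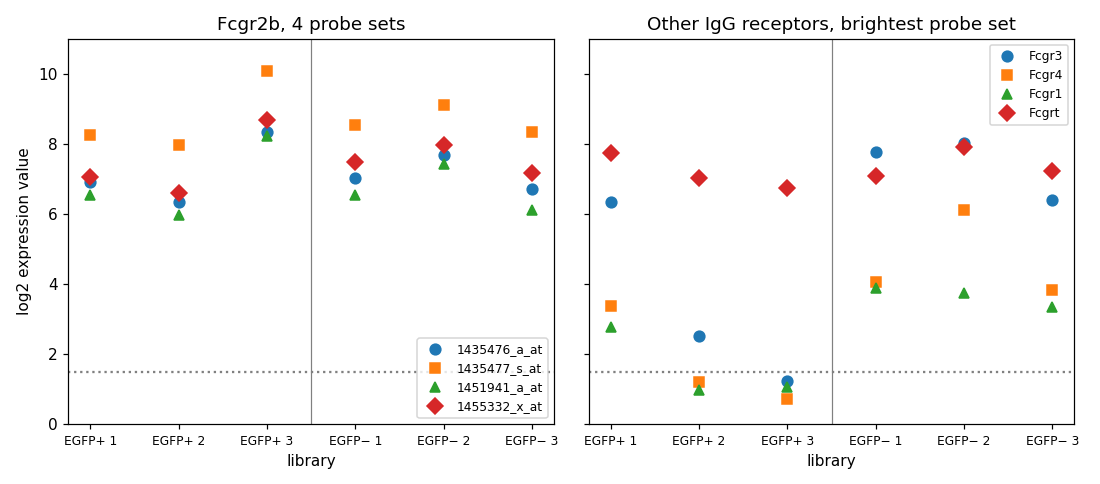
Log2 expression values (vertical axis) by library (horizontal axis) of the 4 Fcgr2b probe sets with a mean above 4 (left) and of the brightest probe sets of Fcgr3, Fcgr4, Fcgr1 and Fcgrt (right), with a dotted line at the highest TrpnX control value of 1.48. All 4 Fcgr2b probe sets peak in positive-labelled replicate 3, the library in which Fcgr3, Fcgr4 and Fcgrt read lowest.

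Fcgr2b, Fcgr4 and Fcgr3 lie next to each other on chromosome 1 with no other annotated protein-coding gene of the RefSeq table between them. Their promoter windows are shown because these neighbours, which bind the same ligand, differed in pattern. Windows reach from 250 bases before to 50 after the annotated start (RefSeq, GRCm38.p6), run 5′ to 3′ on the strand of the gene, and carry in capitals each match to GAGGAA on either strand (TTCCTC on the other), the core recognised by PU.1, the ETS factor of myeloid cells.
Fcgr2b, chr1:170976022-170976321, minus strand: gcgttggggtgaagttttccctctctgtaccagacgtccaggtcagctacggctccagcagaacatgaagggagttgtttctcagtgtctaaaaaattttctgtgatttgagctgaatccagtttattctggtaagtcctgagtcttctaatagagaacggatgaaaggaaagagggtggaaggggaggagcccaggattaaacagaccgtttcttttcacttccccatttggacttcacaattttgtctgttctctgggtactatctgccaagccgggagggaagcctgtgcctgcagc
Fcgr4, chr1:171018676-171018975, plus strand: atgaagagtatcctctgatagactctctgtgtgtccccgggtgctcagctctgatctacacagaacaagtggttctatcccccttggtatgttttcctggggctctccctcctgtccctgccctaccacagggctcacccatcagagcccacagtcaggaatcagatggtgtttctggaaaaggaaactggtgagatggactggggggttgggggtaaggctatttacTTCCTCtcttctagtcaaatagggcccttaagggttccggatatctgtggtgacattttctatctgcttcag
Fcgr3, chr1:171059354-171059653, minus strand: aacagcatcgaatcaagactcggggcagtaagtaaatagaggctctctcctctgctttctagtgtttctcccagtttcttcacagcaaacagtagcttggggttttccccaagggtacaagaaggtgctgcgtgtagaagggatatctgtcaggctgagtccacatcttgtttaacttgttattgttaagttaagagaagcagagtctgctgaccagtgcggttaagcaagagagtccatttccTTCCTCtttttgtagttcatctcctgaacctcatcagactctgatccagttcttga
The Fcgr2b window held 0 matches. The Fcgr4 window held 1, whose first base lay 22 bases before the start, and the Fcgr3 window held 1, at 6 bases before it. A second annotated start of Fcgr3 also has a window with 1 match, 15 bases before that start. The window of Fcer1g, the next member on this chromosome, held 0 matches, although Fcer1g was lower without overlap. Of all 32851 windows, 28.3% held a match. The part of PU.1 in these patterns was not tested. A match describes these letters in this window and is not a site of binding.

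The other antibody receptors differed again. Fcgrt, the neonatal Fc receptor, read 7.74, 7.04 and 6.73 against 7.10, 7.92 and 7.23, with overlapping groups and a difference of -0.25 (SE 0.35), or -0.53 to 0.0061 with each library left out in turn. Fcer2a, or CD23, the low-affinity IgE receptor of B cells, read 1.39, 1.00 and 1.16 against 1.82, 1.91 and 4.45, so 1 library alone was above 4. That library, negative-labelled replicate 3, also held the highest mean of the B and plasma cell list, at 6.67 against 3.06 and 5.65 in the other negative-labelled libraries and 0.93 to 1.89 in the positive-labelled ones. A second, dim probe set of Fcer2a read 1.99, 1.36 and 1.46 against 1.7, 1.42 and 1.89. Its groups overlapped, with a difference of -0.06. Fcer1a, the IgE-binding chain of the high-affinity receptor of mast cells, stayed between 1.06 and 1.20. The 6 mast cell markers averaged 1.74 to 2.63 in every library, and 5 of them were below 4 throughout, with Kit, which also marks the pacemaker cells of Cajal, as the exception.

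Of the 2 mannose receptors, Mrc1 separated the groups and Mrc2 did not. Mrc1, or CD206, an endocytic receptor of resident macrophages that lymphatic endothelium also makes, read 5.15, 4.97 and 2.82 in the positive-labelled libraries against 6.94, 8.17 and 6.25. Its difference was -2.81 (SE 0.80), with 1.11 between the nearest libraries of the groups. Unlike Tyrobp, Mrc1 was at nearly the same level in positive-labelled replicates 1 and 2. The 7 measured lymphatic endothelium markers, a list added after the values were seen, averaged 6.84, 7.74 and 4.92 against 6.70, 7.32 and 5.60, with Lyve1 at 10.72 in positive-labelled replicate 2, and their part in the Mrc1 values was not tested. Mrc2, or Endo180, a collagen uptake receptor of fibroblasts, read 6.64, 6.32 and 5.29 against 6.18, 6.61 and 6.67. Its groups overlapped, as did those of the 6 fibroblast markers, which averaged 9.21 to 10.22 against 9.47 to 10.53.

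The myeloid C-type lectins held 11 measured genes, and in 7 of them the groups did not overlap, where 6.04% of all genes were lower in this way. The same 7 reached 4 in some library, and since 5 of them (Clec4a2, Clec4a3, Clec4e, Clec4n and Clec10a) reached it in negative-labelled libraries alone, that match adds nothing to the count. Clec7a, or dectin-1, the receptor for fungal beta-glucan, read 5.18, 2.26 and 2.15 in the positive-labelled libraries against 7.48, 7.70 and 6.77. Its difference was -4.12 (SE 0.88), with a gap of 1.59 between the groups. Clec4a2, an inhibitory lectin of dendritic cells and macrophages known as DCIR, read 2.43, 1.12 and 1.49 against 5.29, 5.57 and 4.14. It was, unlike Tyrobp and Mrc1, below 4 in positive-labelled replicate 1 too. Its difference was -3.32 (SE 0.50), but positive-labelled replicates 2 and 3 lay at the TrpnX level, and with a floor at the highest TrpnX value the difference was -3.20. A second, dim probe set had a difference of -0.39. Clec4a3, a paralogue of Clec4a2, read 3.49, 0.41 and 0.20 against 5.30, 6.89 and 5.25, and its values in positive-labelled replicates 2 and 3 lay below the TrpnX range, so that the size of its difference, -4.44 (SE 1.01), cannot be read exactly.

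Further lectins of phagocytes showed differences within the groups as well. Clec4d, which binds mycobacterial glycolipid, read 4.99, 0.88 and 0.98 against 5.95, 7.15 and 6.00. Clec4e, or Mincle, its partner in that recognition, read 1.36, 0.79 and 0.63 against 2.21, 6.08 and 5.39. Within the negative-labelled group Clec4e was far lower in replicate 1 than in the other libraries, whereas Clec4d read almost alike in replicates 1 and 3. Clec4n, or dectin-2, a receptor for fungal mannan, read 2.97, 0.86 and 0.63 against 3.22, 5.36 and 3.95. Clec10a, a galactose-binding lectin of macrophages and dendritic cells, read 2.12, 1.03 and 1.01 against 2.47, 5.95 and 4.57. Clec4e, Clec4n and Clec10a shared a low value in negative-labelled replicate 1, the library with the fewest bright probe sets. In the negative-labelled libraries the dendritic cell list averaged 2.07, 3.03 and 3.13. The B and plasma cell list averaged 3.06, 5.65 and 6.67 there, and the macrophage list 7.72, 8.17 and 6.33. The part of any of these cell types in the low values was not tested. The remaining 4 lectins of the group, Clec4b1, Clec5a, Clec12b and Clec1b, stayed below 4 in all libraries, with Clec4b1 highest in negative-labelled replicate 2 at 2.60.

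Paralogues of these families share loci as well as names. Of the 49 genes, 19 are on chromosome 6, and 8 of these had groups without overlap, close to the share over all members (21 of 49, 42.9%), where 6.04% of all genes were lower in this way. The run from Clec4a3 to Clec4e holds 6 members, of which 5 did not overlap, with Clec4b1 as the exception. The run from Clec2h to Clec7a holds 10 members, of which 3 did not overlap, and of these 3 only Clec7a reached 4 in any library. Paralogues within a run may share probe matches, which was not tested.

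RefSeq promoter windows were found for 40 of the 49 genes. The windows of Mrc1, Clec7a, Clec4a3 and Clec4a2 are shown because in these 4 members more than 1 log2 unit lay between the nearest libraries of the groups, with the same letters in capitals and 1 window for each gene.
Mrc1, chr2:14229164-14229463, plus strand: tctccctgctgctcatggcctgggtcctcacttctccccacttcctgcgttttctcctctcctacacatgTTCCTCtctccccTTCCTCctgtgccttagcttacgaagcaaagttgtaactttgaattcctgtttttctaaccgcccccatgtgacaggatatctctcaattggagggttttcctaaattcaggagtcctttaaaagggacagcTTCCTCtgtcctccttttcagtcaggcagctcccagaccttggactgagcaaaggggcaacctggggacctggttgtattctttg
Clec7a, chr6:129472730-129473029, minus strand: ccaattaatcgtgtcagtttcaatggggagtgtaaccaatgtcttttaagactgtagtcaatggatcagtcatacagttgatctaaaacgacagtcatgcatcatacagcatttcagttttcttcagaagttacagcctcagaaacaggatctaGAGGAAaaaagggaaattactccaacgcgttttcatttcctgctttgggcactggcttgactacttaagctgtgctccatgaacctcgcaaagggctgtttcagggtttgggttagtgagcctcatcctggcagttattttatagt
Clec4a3, chr6:122952265-122952564, plus strand: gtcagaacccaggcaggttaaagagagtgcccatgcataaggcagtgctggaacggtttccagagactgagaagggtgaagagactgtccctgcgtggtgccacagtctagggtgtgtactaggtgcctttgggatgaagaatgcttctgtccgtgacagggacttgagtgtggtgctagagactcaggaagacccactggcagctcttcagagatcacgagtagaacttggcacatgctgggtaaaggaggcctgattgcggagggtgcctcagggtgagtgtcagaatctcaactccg
Clec4a2, chr6:123122440-123122739, plus strand: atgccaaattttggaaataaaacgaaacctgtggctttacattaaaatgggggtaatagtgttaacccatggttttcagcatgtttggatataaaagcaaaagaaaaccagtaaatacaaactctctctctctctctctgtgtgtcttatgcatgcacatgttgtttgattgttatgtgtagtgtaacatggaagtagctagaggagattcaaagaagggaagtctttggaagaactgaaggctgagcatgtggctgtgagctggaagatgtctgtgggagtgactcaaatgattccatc
The Mrc1 window held 3 matches, beginning 180, 167 and 35 bases before the start, the Clec7a window held 1, at 96 bases, and the Clec4a3 and Clec4a2 windows 0. A second annotated start of Clec4a3 has a window with 1 match, 50 bases before that start. Of all 47 member windows, some of which overlap as alternative starts of 1 gene, 26 (55.3%) held GAGGAA on either strand, as did 28.3% of all 32851 windows. Among windows of the members without overlap that reached 4, the share was 10 of 17 (58.8%), and among the other member windows it was 16 of 30 (53.3%).

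Of the 6 TREM genes, Trem2 alone reached 4 in any library. Trem2, a lipid-sensing receptor of macrophages that signals through Tyrobp, read 3.48, 2.42 and 1.88 against 5.42, 4.23 and 2.83, so that positive-labelled replicate 1 lay above negative-labelled replicate 3 and the groups overlapped. Its difference was -1.56 (SE 0.76) with this probe set and 0.02 with its dim second one. Without negative-labelled replicate 1 it was -0.93, and without negative-labelled replicate 3 it was -2.23. Within each numbered pair the positive-labelled library was lower, with differences of -1.93, -1.82 and -0.94. Trem1, an amplifier of inflammation on neutrophils and monocytes, read 2.30, 1.31 and 1.49 against 2.61, 3.40 and 3.74, and Treml2, a relative found on B cells and myeloid cells, stayed between 1.50 and 2.37. The 5 measured neutrophil and monocyte markers averaged 5.03, 3.01 and 4.54 against 6.87, 7.09 and 8.0. Of the 6 TREM genes, 3 had groups without overlap, and all 3 of them (Trem1, Trem3 and Treml4) were below 4 throughout, while 6.04% of all genes were lower without overlap.

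Siglecs, which bind sialic acid and mostly inhibit, were near background, with 1 of 5 genes above 4 in any library. Siglecg, an inhibitory Siglec of B cells, read 1.54, 1.60 and 1.55 against 1.80, 2.03 and 4.54, and so, like Fcer2a, was above 4 in negative-labelled replicate 3 alone. Siglecf, a marker of eosinophils, read 1.82, 1.10 and 1.23 against 2.86, 2.08 and 1.75. Siglece, of neutrophils and macrophages, stayed between 1.63 and 1.73. Siglec1, a marker of certain tissue macrophages, stayed between 1.54 and 1.79, and Siglech, of plasmacytoid dendritic cells, between 1.37 and 1.85, so these genes gave no signal to compare at this array's background.

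The 15 other C-type lectins had a median difference of -0.03, with 2 genes without overlap (Clec2i and Clec2m), both below 4 in all libraries, where 6.04% of all genes were lower in this way. Clec3b, or tetranectin, read 5.83, 7.23 and 4.73 in the positive-labelled libraries and 5.73, 6.47 and 8.15 in the negative-labelled ones. Clec11a, a secreted growth factor of bone and connective tissue, read 5.72, 5.16 and 4.02 against 4.63, 5.33 and 5.37, and Clec2d, a ligand of an inhibitory NK cell receptor, read 5.21, 6.17 and 5.75 against 6.32, 5.75 and 7.24. The groups of all 3 overlapped. Clec14a, a lectin-like protein of endothelium, read 4.31, 4.88 and 4.92 against 3.98, 4.74 and 5.02, with overlapping groups. The 8 endothelium markers averaged 5.82, 6.84 and 4.80 against 6.17, 6.55 and 6.40, lowest in positive-labelled replicate 3, where Clec14a was not.

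Clec2h and Clec4g had overlapping groups and set replicate 3 of both groups apart. Clec2h, a lectin-related gene of gut epithelium, read 5.07, 4.48 and 1.36 against 4.12, 4.21 and 2.55. The 6 epithelium markers averaged 8.0, 7.34 and 5.12 against 6.42, 6.97 and 5.62, so replicate 3 was lowest in both groups for the gene and for the list, and the part of epithelium was not tested. Clec4g, a lectin of liver and lymph node sinusoidal endothelium, read 1.47, 1.17 and 4.40 against 1.92, 1.30 and 3.63, highest in replicate 3 of both groups. The difference was 0.01 (SE 1.08) for Clec2h and 0.06 (SE 1.06) for Clec4g. Clec16a, which despite its name acts in autophagy, stayed between 3.43 and 3.78, and the 6 genes Clec1a, Clec2e, Clec2g, Clec2l, Clec4f and Clec18a were below 4 throughout, with a highest value of 2.33 in Clec1a.

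The intracellular steps behind these receptors were read from a list of 26 kinases, adaptors and phosphatases, of which 23 were measured. In 12 of the 23 the positive-labelled libraries all lay below the negative-labelled ones, where 6.04% of all genes did, in 0 they all lay above, and the median difference was -1.14. This list too was chosen with earlier results of these data known, so its share is not independent of the values. None of its genes passed over all genes in limma. Ptprc, or CD45, the leukocyte phosphatase that activates Src kinases, read 4.17, 1.45 and 2.21 against 5.34, 8.53 and 8.88. Ptpn6, or SHP-1, the phosphatase recruited by inhibitory lectins and Siglecs, read 3.88, 2.33 and 1.92 against 4.41, 6.61 and 7.31, and Lcp2, or SLP-76, a scaffold downstream of Syk, read 2.04, 1.12 and 1.18 against 3.18, 6.01 and 4.64. All 3 are made by lymphocytes as well as myeloid cells and were lowest among the negative-labelled libraries in replicate 1, in which Tyrobp was not. Negative-labelled replicate 1 also had the fewest bright probe sets, and the part of lymphocytes in these values was not tested. Syk itself, named after its value was seen, read 4.17, 2.60 and 1.22 against 4.14, 5.29 and 5.62, so that replicate 1 read almost alike in the 2 groups.

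The 3 genes with the highest differences of this list, named for that place in it, had overlapping groups. Ptpn11, the phosphatase SHP-2, read 8.30, 8.19 and 8.66 against 8.19, 8.11 and 8.56. Bcl10, which links receptors to NF-kappaB, read 7.23, 7.04 and 6.36 against 6.88, 7.09 and 6.82. Cbl, a ubiquitin ligase, read 6.25, 6.33 and 6.65 against 5.98, 6.74 and 6.70. Their differences were 0.10 (SE 0.20), -0.05 (SE 0.25) and -0.06 (SE 0.25), and each turned sign when 1 library was left out or, for Cbl, when its probe sets were averaged.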

How the data were processed

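Biotinylated cRNA from about 50 ng of total RNA was hybridised to Affymetrix Mouse Genome 430.2 GeneChip arrays, per the labels and the series design text. The authors deposited log2 expression values per probe set, with RMA named in the submitters' processing notes; version and settings are not given in the sources used here, and the scale was read off the values, which span 0.05 to 15.2. Column medians of 1.91 to 1.99 with unequal upper quartiles, 4.08 to 4.86, are unusual for RMA, so how the values were made is uncertain. The number of arrays, not a depth, limits the precision.

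Of 45101 probe sets, 64 controls, 932 with several symbols in GEO's platform annotation and 9160 with none were left out, and 34945 gave 18193 genes. Checked against RefSeq by Entrez identifier, 0 symbols were updated. Of the 49 members, 17 had several probe sets. The comparison used lmFit and eBayes of limma 3.58.1 (R 4.3.3, two-sided), adjusted over all genes at 0.05; the p-values measure the spread among 6 pooled libraries. Figures used Python 3.11.15 and matplotlib 3.10.9. The fit was tested on simulated data. How often it would call a true change at the spread of these libraries is not given here.

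Replicate numbers are shared by the groups, and deviations from the group means correlated across genes at 0.36, 0.32 and 0.42 in the same-numbered pairs, so the numbers were taken to pair libraries from these data, and a block was fitted as an alternative. Other alternatives were quantile normalisation, centring on the median of brighter probe sets, a filter on a mean of 4, a floor at the highest TrpnX value, averaged probe sets, leaving out _x_at and _s_at, trend and robust variances, array weights, and leaving out each library. Named genes were Tyrobp, Clec4a2, Mrc1 and Mapt, then in each role group the 3 with the highest mean and the 3 with the largest absolute difference that reached 4, and 3 signalling genes at each end; other members are described as such, and Lyve1, Syk, Kit, Sox10, S100b and Erbb3 were chosen after their values were seen. The members and lists were chosen with earlier results of these data known, and some listed genes were not analysed here. Role groups, including the split into myeloid and other C-type lectins, were assigned gene by gene, and other assignments were not tested.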

Additional observations from a re-analysis of the deposited data

How the results depend on the processing

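No member passed under any alternative run. The number of genes called over the whole table was 0, except 2 with the floor at the highest TrpnX value and 2 without positive-labelled replicate 1 (0 to 2 over the 6 fits that leave out a library). When genes with a mean at or under 4 were left out, 13 of the 49 members remained. The 21 members without overlap then became 6 of 13, with a median difference of -0.85. The same share and median over all genes with a mean above 4 are not given here, so these values cannot be placed against them. With the replicate block 0 members passed (lowest adjusted p 0.661 in limma) and the median difference was -0.40, and the block changed no other call. Of 436 values of 30 named genes, 14 turned sign, in 8 genes, and the cause was not tested. Leaving out each library in turn gave a difference of -0.11 to 2.00 for Mapt and -0.55 to 0.51 for Fcgr2b, each lowest without positive-labelled replicate 3. The same fits gave -0.53 to 0.0061 for Fcgrt, -0.52 to 0.33 for Clec11a, -0.31 to 0.070 for Cbl, -0.23 to 0.21 for Bcl10 and -0.043 to 0.24 for Ptpn11. Cbl was at 0.11 with averaged probe sets, Trem2 at 0.018 without _x_at and _s_at, and Fcgr2b at -0.44 with array weights. With 1 of its other probe sets, an alternative chosen after seeing the data, Fcgr2b was at -0.095.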

Other observations

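Receptors outside the named families that use the same adaptors, inhibitory motifs or sugar-binding folds were read from a list of 26 genes, of which 24 were measured. In 11 of the 24 the positive-labelled libraries all lay below the negative-labelled ones, where 6.04% of all genes did, in 0 they all lay above, and the median difference was -0.91. The list was chosen with earlier results of these data known, so its share is not independent of the values. Genes named from this list were chosen after their values were seen. Cd84, a self-binding receptor of leukocytes, read 2.95, 1.78 and 1.46 against 3.83, 5.75 and 3.98. Cd300a, an inhibitory receptor that binds membrane lipids, read 3.18, 1.57 and 1.26 against 3.90, 5.91 and 3.81, and Pirb, an inhibitory receptor for MHC class I, read 2.93, 1.42 and 1.55 against 3.15, 5.98 and 4.87. Cd22, the B cell Siglec whose symbol falls outside the rule, read 1.81, 1.22 and 1.44 against 2.12, 2.84 and 6.78, highest in the same library as Siglecg and Fcer2a. Klrd1, an NK cell lectin, read 1.35, 0.27 and 0.68 against 1.63, 5.45 and 4.73.

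Cd302, Pla2r1 and Colec12, also of this list, overlapped between the groups. Cd302, a C-type lectin of myeloid and other cells, read 6.81, 7.55 and 6.72 against 6.97, 8.38 and 7.46, and was lower in all 3 numbered pairs, by differences of -0.16, -0.83 and -0.74 (limma adjusted p 0.661 with the replicate block). Pla2r1, a relative of the mannose receptors, read 4.89, 5.61 and 5.31 against 5.30, 5.31 and 5.45, and Colec12, a collectin of endothelium and stroma, read 5.01, 5.82 and 4.84 against 5.03, 5.84 and 6.17. Colec12 was lower in all 3 pairs, with differences of -0.017, -0.027 and -1.33, and Pla2r1 in 2 of 3. The dendritic cell list averaged 2.07, 1.92 and 1.61 against 2.07, 3.03 and 3.13, the T and NK cell list 1.61, 1.17 and 1.12 against 1.72, 2.31 and 2.46, and the smooth muscle list 9.60, 9.15 and 11.16 against 10.01, 9.40 and 11.32.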
